A study of Rattus norvegicus with 25 samples.

Results

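Sections of rat intestine that the submitters called glucotonic were compared with non-glucotonic ones, all taken after Roux-en-Y gastric bypass (RYGB), over all Ensembl rat gene IDs of the deposited count table. The sections made up 10 of the 25 libraries of the series, chosen by their titles: 5 labelled Glucotonic_OLE and 5 labelled Nonglucotonic_OLE. Each kind carried the numbers 13, 16, 18 and 19, and number 13 came as 2 libraries per kind, which were summed. This gave 8 samples, 4 of each kind, paired by number.

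RYGB joins a small stomach pouch to the jejunum. Food then runs down an alimentary limb and meets bile and pancreatic juice only in the common limb further down. The operation lowers blood glucose in people and rodents with diabetes, and glucose uptake by the remodelled gut is one of the processes studied for it. The title of the series links a glucotonic effect to the glucose transporter GLUT1 and to atypical protein kinase C, an intracellular kinase family.

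The series set bypassed against sham-operated rat intestine, and this contrast asks what sets a glucotonic section apart within bypassed rats. Both kinds of section came from the intestine after RYGB, and the design text places this contrast in the common limb. OLE was read as the Otsuka Long-Evans Tokushima Fatty (OLETF) rat, which the design text names. OLETF rats lack a working receptor for the satiety hormone cholecystokinin and become obese and diabetic. The sources used here do not give how a section was called glucotonic, the age or diet of the rats, or whether 1 number is 1 rat. All section libraries are therefore from operated rats, and no non-operated section is among them. The 3 Sham_OLE libraries, distal intestine of sham-operated OLETF rats with the numbers 4, 22 and 23, are shown beside the sections as a reference level. A first cohort served to describe where along the gut an ID is high. It held sham jejunum (Sham_JEJU), sham ileum (Sham_IL), alimentary limb (RYGB_AL) and common limb (RYGB_CL), with 3 libraries each and no strain in their labels. The labelled tissue could not be checked against marker genes, because the table gives IDs without symbols.

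Each section library held 18.1 to 25.6 M counts (M, the SI prefix mega). A single ID, ENSRNOG00000043866, took 46.1% ± 4.79 of the counts in glucotonic and 40.5% ± 3.45 in non-glucotonic samples (SD, n = 4 each). In Sham_OLE its share was 46.9% ± 3.79 (SD, n = 3). This ID was higher in the glucotonic section in 3 of 4 numbers, with a mean difference of 5.6 ± 6.55 percentage points (exact two-sided sign-flip permutation p = 0.25). ENSRNOG00000030478 took 7.34% ± 4.01 in glucotonic and 10.2% ± 3.76 in non-glucotonic samples, and 6.67% ± 0.474 in Sham_OLE (n = 3). In glucotonic sections of numbers 13, 16, 18 and 19 it held 4.69%, 5.43%, 5.94% and 13.3%, and in non-glucotonic sections 9.07%, 9.03%, 7.1% and 15.7%. Its share was thus the lower one in the glucotonic section of every number, with a mean pair difference of -2.88 ± 1.41 percentage points, while the groups overlapped because of number 19. The exact two-sided sign-flip p was 0.125, the smallest that 4 pairs allow. Counting error on these shares was at most 0.023 percentage points (95% Wilson interval). Both IDs were left out of the library totals, which left 8.75 to 12.8 M counts per library, and all CPM values (counts scaled to the library total) refer to what was left.

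The samples of number 19 and 1 library of number 13 stood apart. In a principal component analysis of the 10 libraries, the first component (54.2% of the variance) placed both libraries of number 19 at 71.3 and 69.3 and all others between -32.2 and -0.4. The second component (12.9%) ordered the libraries by kind of section with 1 exception. Glucotonic libraries lay between 0 and 23.3 on it. Non-glucotonic libraries of number 13 lane 7 and of numbers 16, 18 and 19 lay at -30.7, -20.8, -13.3 and -13.8. The library labelled Nonglucotonic_OLE 13 section 33, from lane 4, lay at 15.6, among the glucotonic ones.

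**Figure D1:**
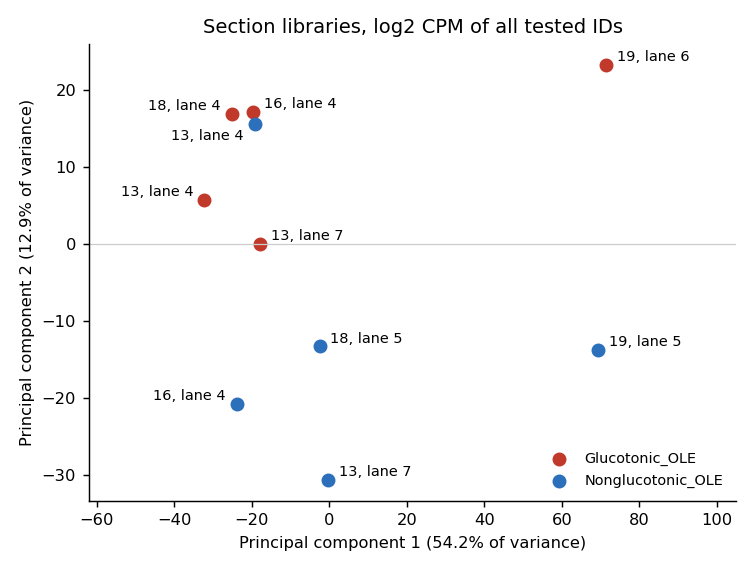
Position of the 10 section libraries on the first 2 principal components of log2 CPM, with the number and sequencing lane beside each point; red points are Glucotonic_OLE and blue points Nonglucotonic_OLE. Number 19 lies at the far right, and the blue point of number 13 lane 4 lies at 15.6 on the vertical axis, with the red points, while the other 4 blue points lie between -30.7 and -13.3.

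The same library was compared with the other 9 across IDs, after each ID was centred on its mean over all 10 libraries. It correlated at 0.34 and 0.21 with the glucotonic libraries of its own number (lanes 4 and 7), at 0.28 with glucotonic 16 and at 0.18 with glucotonic 18. With the non-glucotonic libraries it correlated at -0.2 (13, section 34), -0.01 (16), -0.18 (18) and -0.53 (19), and with glucotonic 19 at -0.35. These r values run over 13884 IDs that share libraries and depth, so they describe the profiles and carry no test. Lane 4 also held glucotonic 13, 16 and 18 and non-glucotonic 16, and non-glucotonic 16 lay with the other non-glucotonic libraries. The non-glucotonic libraries of number 13 carry different section labels, 33 and 34. The cause of the position of section 33 was not tested. Results are given below with this library summed into number 13, as the titles group it, and without it.

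With the number as a block, 19 of 13884 tested IDs differed between glucotonic and non-glucotonic sections (adjusted p under 0.05 by the quasi-likelihood test of edgeR, with the adjustment of Benjamini and Hochberg), which is 0.137% of the IDs. Of these, 7 rose in glucotonic sections (0.0504%) and 12 fell (0.0864%). The risen IDs were raised by 0.66 to 1.41 on the log2 scale (median 0.91), that is, 1 of 7 by more than 2-fold, and averaged 77.8 to 1926 CPM. The fallen IDs reached further: their log2 changes ran from -0.67 to -5.23 (median -1.09), 7 of 12 fell by more than 2-fold and 4 by more than 4-fold, at averages of 2.01 to 316 CPM. All 19 kept their direction in each of the 4 numbers, where 21.7% of all tested IDs had a common direction in all 4 (1470 higher and 1549 lower). For 8 of the 19, 1 risen and 7 fallen, the groups did not overlap, against 2.75% of all tested IDs. In the 11 others the groups overlapped. The fit chose the 19 from these same samples, so both shares describe the calls and do not test them. In bulk tissue, fewer cells of a type and less RNA per cell cannot be told apart, and that holds for every ID below.

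The calls depended on the block, and the size of the differences did so less. Without the block, edgeR called 0 IDs, the lowest adjusted p was 0.563 (edgeR), and 506 IDs had an unadjusted p under 0.05. The log2 changes of the 4 IDs described below were then -5.38 (ENSRNOG00000010708), -5.09 (ENSRNOG00000047026), 1.36 (ENSRNOG00000003977) and 0.88 (ENSRNOG00000058388), against -5.23, -5.04, 1.41 and 0.94 with it. The biological coefficient of variation was 0.266 without the block, on 6 residual degrees of freedom, and 0.126 with it, on 3. With the block, 1790 IDs (12.9%) had an unadjusted p under 0.05, 865 of them higher and 925 lower, at median log2 changes of 0.36 and -0.37. DESeq2 with the same block called 276 IDs, 175 higher and 101 lower, among them 18 of the 19.

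Sequencing lane differed within some pairs. Both sections of numbers 13 (lanes 4 and 7) and 16 (lane 4) shared their lanes, whereas the glucotonic section came from lane 4 and its partner from lane 5 in number 18, and from lanes 6 and 5 in number 19. In the same-lane pairs of numbers 13 and 16 alone, edgeR called 1 ID, and with lane as a covariate and the libraries of number 13 apart it called 1, in each case 0 of the 19. Unadjusted p was under 0.05 for 703 and 709 IDs in these fits. Both fits entered section 33 as a library of its own. With the libraries of number 13 apart and no lane term, edgeR called 0 IDs under 1 block and 1 as separate pairs. Lane and the weight of section 33 cannot be told apart in these fits. The part of lane in the calls of the full set was not tested.

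Among the fallen IDs, ENSRNOG00000010708 had the most negative log2 change. Its level in the glucotonic sections of numbers 13, 16, 18 and 19 was 0.627, 0, 0.1 and 2.17 CPM, from 15, 0, 1 and 20 counts. In the non-glucotonic sections it was 16.4, 15.3, 2.79 and 84.1 CPM. Every glucotonic sample was below every non-glucotonic one, and the 0 counts of glucotonic 16 allow up to 0.316 CPM. The group means were 0.724 ± 1 and 29.7 ± 36.8 CPM (SD, n = 4 each), and the log2 change was -5.23 with an SE of 0.29 (adjusted p = 0.000251, edgeR with the block). That SE comes from the fit, and the pair log2 differences of numbers 13, 16, 18 and 19 were -4.41, -6.69, -3.55 and -5.18.

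In 1 of the section pairs that difference was not seen. In number 13, the non-glucotonic library of section 34 held 357 counts (30.2 CPM) and that of section 33 held 0 counts, so the 16.4 CPM of the summed sample came from section 34 alone. In the first cohort the ID was at 111 ± 47 CPM in sham jejunum, 51.9 ± 25.3 CPM in the alimentary limb, 29.5 ± 29.9 CPM in the common limb and 4 ± 6.67 CPM in sham ileum (SD, n = 3 each). The ileum minus jejunum log2 difference was -4.78 (SE 1.75, adjusted p = 0.105, edgeR without a block), which did not pass in that unpaired fit. The Sham_OLE samples 22, 23 and 4 spanned 31.9, 0.204 and 168 CPM, which is wider than the gap between the section groups.

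In the sections, ENSRNOG00000047026 followed the same pattern. It stood at 0.878, 0.736, 0.501 and 1.41 CPM in glucotonic sections of numbers 13, 16, 18 and 19. The non-glucotonic sections held 34.5, 58.2, 7.01 and 20.8 CPM. The groups did not overlap, with means of 0.882 ± 0.385 and 30.1 ± 21.8 CPM (SD, n = 4 each) and a log2 change of -5.04 (SE 0.33, adjusted p = 0.00252, edgeR with the block). Section 33 of number 13 again read like a glucotonic section, with 8 counts (0.812 CPM) against 742 counts (62.7 CPM) in section 34. The first cohort had 543 ± 390 CPM in sham jejunum and 30.7 ± 50.3 CPM in sham ileum (SD, n = 3 each). Their log2 difference was -4.12 (SE 2.06, adjusted p = 0.215, edgeR without a block). The alimentary limb held 108 ± 48.4 CPM and the common limb 157 ± 193 CPM. The Sham_OLE samples 22, 23 and 4 were at 28.3, 0.815 and 377 CPM.

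Of the risen IDs, ENSRNOG00000003977 had the highest log2 change. Glucotonic sections of numbers 13, 16, 18 and 19 held 299, 232, 103 and 41.6 CPM and non-glucotonic sections 149, 57.9, 37.7 and 18.4 CPM. The groups overlapped, since the non-glucotonic section of number 13 was above the glucotonic sections of numbers 18 and 19, but each glucotonic section was above its own partner. The log2 change was 1.41 (SE 0.16, adjusted p = 0.0238, edgeR with the block), on group means of 169 ± 117 and 65.7 ± 57.7 CPM (SD, n = 4 each). Within number 13, the glucotonic libraries held 314 and 291 CPM, section 33 held 278 CPM and section 34 held 41.8 CPM. Sham_OLE was at 52.5 ± 18.1 CPM (SD, n = 3). The first cohort was at 37.2 ± 17.3 CPM in sham jejunum and 33.3 ± 6.22 CPM in sham ileum. It was at 52.1 ± 25.3 CPM in the alimentary limb and at 51 ± 8.68 CPM in the common limb.

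ENSRNOG00000058388, the next of the risen IDs, was at 273, 278, 145 and 160 CPM in glucotonic sections and 180, 142, 76.4 and 65.6 CPM in non-glucotonic sections of numbers 13, 16, 18 and 19. Its log2 change was 0.94 (SE 0.11, adjusted p = 0.0138, edgeR with the block), with means of 214 ± 71.6 and 116 ± 54.3 CPM (SD, n = 4 each) and 1 non-glucotonic sample, number 13, inside the glucotonic range. Section 33 of number 13 held 302 CPM, between the glucotonic libraries of that number at 337 and 226 CPM, and section 34 held 78.6 CPM. Sham_OLE averaged 102 ± 30.5 CPM (SD, n = 3).

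**Figure D2:**
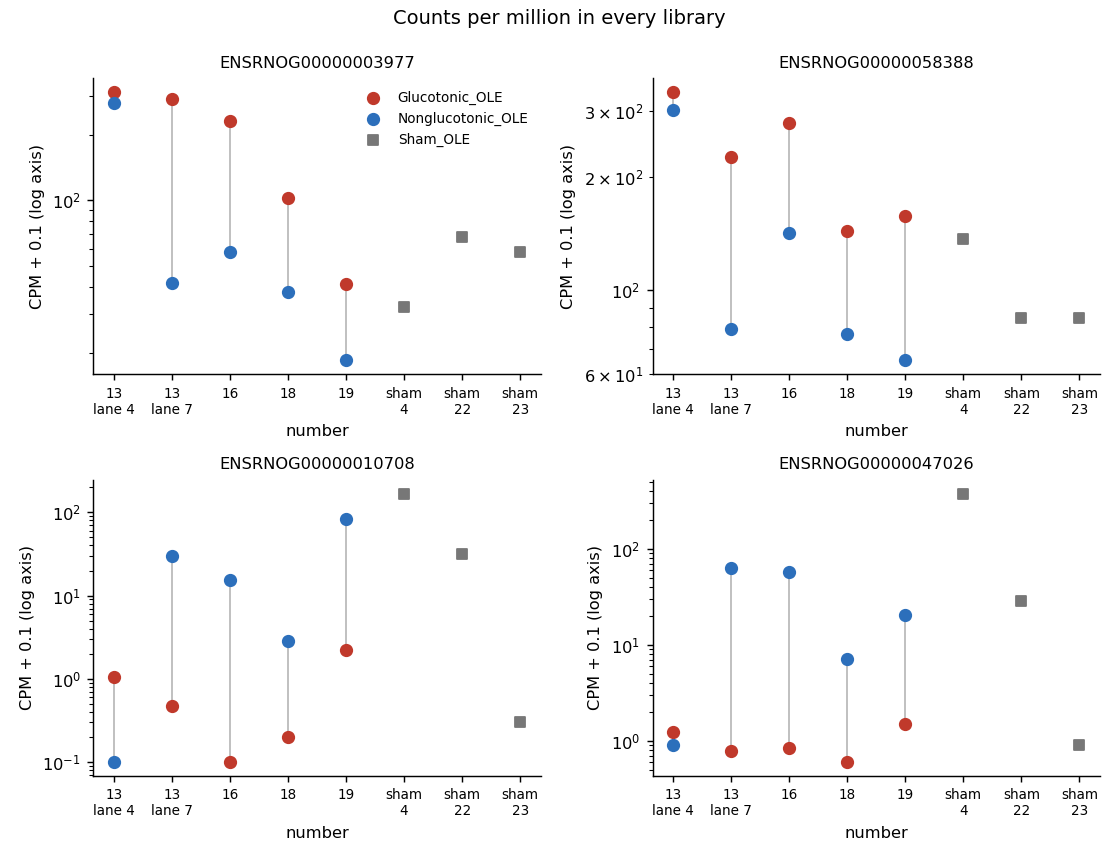
CPM (plus 0.1, log axis) of the 2 risen and the 2 fallen IDs named by rule, in each section library and each Sham_OLE library; grey lines join the glucotonic (red) and non-glucotonic (blue) library of a pair, and squares are sham. The lines are long in 13 lane 7, 16, 18 and 19 and short or turned in 13 lane 4, where the non-glucotonic library held 0 counts of ENSRNOG00000010708.

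The 19 IDs were then read in 5 section pairs, with the libraries of number 13 kept apart by lane. In the pairs of 13 lane 7, 16, 18 and 19, all 19 had the called direction. The median log2 difference of the 12 fallen IDs was -1.43, -1.41, -1.11 and -1.15 in these pairs, and that of the 7 risen IDs 1.51, 1.11, 0.96 and 1.02. In the pair of 13 lane 4, which holds section 33, 10 of 19 had the called direction, 5 of the 12 fallen and 5 of the 7 risen. Their medians there were 0.08 and 0.16. These pairs were part of the fit that chose the IDs, so the counts describe the calls and do not test them.

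**Figure D3:**
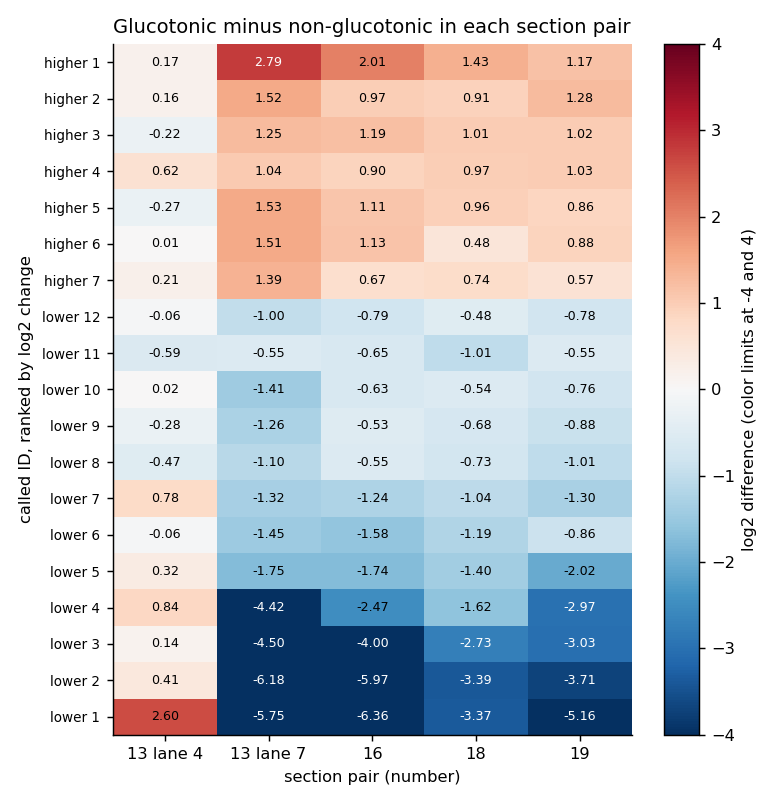
Log2 difference, glucotonic minus non-glucotonic, of the 19 called IDs (one line each, ranked by log2 change) in 5 section pairs (columns); red is higher and blue lower in the glucotonic section, with color limits at -4 and 4. All 19 IDs have the called direction in the columns of 13 lane 7, 16, 18 and 19, and 10 of 19 in the column of 13 lane 4.

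A reading free of that choice came from leaving out a number, calling IDs in the other 3 and looking at the number left out. Without number 13, edgeR with the block called 223 IDs (161 higher and 62 lower), 1.61% of the 13884 tested in that fit, and these included all 19. In the lane 7 pair of number 13, 215 of the 223 (96.4%) had the called direction, with medians of 0.66 for the higher and -0.65 for the lower IDs. In the lane 4 pair, 54 of 223 (24.2%) did, and the medians were turned, at -0.25 and 0.29. Over all tested IDs, 51.9% (lane 4) and 52.8% (lane 7) were higher in the glucotonic library of these pairs. For these 223 IDs, 1 section pair of number 13 thus followed the calls of the other numbers and 1 mostly ran against them.

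For the other numbers the calls were few. Without number 16, 8 of 13962 tested IDs were called (2 higher and 6 lower). All 8 had the called direction in number 16, with medians of 1.44 and -2.98. Without number 18, 17 of 13936 tested IDs were called (5 and 12) and all 17 held in number 18, with medians of 0.49 and -1.37. Without number 19, 6 of 13905 tested IDs were called, all lower, and all 6 held in number 19 with a median of -3.58. Number 19 stood far from the others in level, and its glucotonic section nevertheless differed from its non-glucotonic section in the called direction for each of these 6. Over all tested IDs, 49% (number 16), 50.2% (18) and 50.2% (19) were higher in the glucotonic section of the number left out. Of the 8, 17 and 6 called IDs, 7, 11 and 4 were among the 19 of the full fit.

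**Figure D4:**
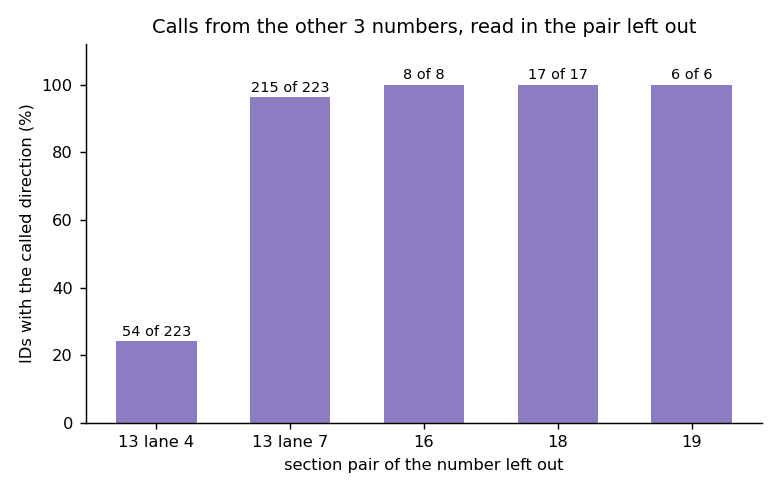
Percentage of IDs with the called direction in a section pair that the calls did not use; bars are section pairs, the calls came from the other 3 numbers (edgeR with the block), and the counts stand above the bars. The pair of 13 lane 4 is at 24.2% (54 of 223), that of 13 lane 7 at 96.4% (215 of 223), and the others at 100% of 8, 17 and 6 IDs.

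The count of calls moved with how number 13 entered, as it did with the tool and the block. With section 33 and its lane 4 partner in place of the sum, edgeR called 0 IDs (1123 at an unadjusted p under 0.05). With the lane 7 pair alone it called 407 of 13936 (2.92%), 255 higher and 152 lower, again including all 19. Across 13884 IDs, which are not independent, the log2 differences of the 13 lane 4 pair correlated at 0.0896 with those of the 13 lane 7 pair, at 0.169 with number 18 and at -0.21 and -0.17 with numbers 16 and 19. The lane 7 pair correlated at 0.305, 0.512 and 0.278 with numbers 16, 18 and 19, and those 3 numbers among themselves at 0.217 to 0.332. Both glucotonic libraries of number 13 carry the section label 38, and they differed by more than 2-fold in 306 IDs, against 601 between sections 33 and 34. Between the summed sections of number 13, 113 IDs differed by more than 2-fold. Its lane 4 and lane 7 pairs had 336 and 347 such IDs before summing, and numbers 16, 18 and 19 had 557, 583 and 628.

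Intestine changes along its length, with the jejunum given to sugar and fat absorption and the ileum to the uptake of bile acids and vitamin B12, so the called IDs were read in the first cohort, which shares no library with the sections. Sham ileum against sham jejunum gave 443 ileum-high IDs (2.75% of 16123 tested) and 1045 jejunum-high IDs (6.48%). The fit was edgeR at an adjusted p under 0.05, without a block, although both tissues carry the same replicate labels. Of the 12 fallen IDs, 11 were lower in sham ileum than in sham jejunum, with a median log2 difference of -2.96 against -0.03 over all tested IDs. Among them, 6 were called jejunum-high and 0 ileum-high. Of the 7 risen IDs, 2 were higher in ileum than in jejunum and 0 passed in either direction, and their median was -0.17.

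The alimentary limb, the segment that carries food after bypass, differed from sham jejunum in 719 higher IDs (4.46%) and 518 lower IDs (3.21%; edgeR, adjusted p under 0.05). All 7 IDs that rose in glucotonic sections were also higher in the alimentary limb than in sham jejunum, with a median log2 difference of 0.83 against -0.01 over all tested IDs, and 2 of the 7 had passed there. All 12 fallen IDs were lower in the alimentary limb, with a median of -1.43, and 1 had passed. The alimentary and the ileum comparison share the Sham_JEJU samples, so the values of an ID in them are not independent.

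The calls made without number 13 gave the same description on more IDs. Of the 161 higher IDs, 68 were raised by more than 2-fold (median log2 change 0.89), and 60 of the 160 measured in the first cohort were alimentary-risen (37.5%, against 4.6% of all tested IDs). These 60 were 9.48% of the alimentary-risen IDs tested. In the alimentary limb, 86.2% of the higher IDs were above sham jejunum, against 49.2% of all. Of the 62 lower IDs, 20 fell by more than 2-fold (median -0.84). Jejunum-high IDs made up 23 of the 62 (37.1%, against 7.31% of all tested, and 2.29% of that list), and 11 were alimentary-fallen (17.7% against 3.57%). None of the 62 was ileum-high, and 6.45% of them were above sham jejunum in ileum, against 48.4% of all. Of the higher IDs measured there, 11 were ileum-high (6.88%, against 2.71% of all tested) and 5 jejunum-high (3.12%). In ileum, 47.5% of the higher IDs were above sham jejunum. With the lane 7 pair standing for number 13, 89 of the higher IDs (35%, against 4.58% of all tested) were alimentary-risen. In that fit, 57 of the lower IDs (37.5%, against 7.29%) were jejunum-high. Ileum-high IDs were 23 of the higher (9.06%) and 3 of the lower IDs (1.97%), against 2.7% of all tested. That fit shares numbers 16, 18 and 19 with the one without number 13, so it is no independent reading.

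Whole groups of IDs defined in the first cohort were also read in the sections. Of 634 alimentary-risen IDs tested, 495 (78.1%) were higher in glucotonic sections, with a median log2 change of 0.15, against 48.7% and -0.01 over all tested IDs. At an unadjusted p under 0.05, 168 were higher (26.5%) and 7 lower (1.1%), against 6.23% and 6.66% of all tested IDs, and 2 were called. Of 491 alimentary-fallen IDs, 102 (20.8%) were higher and the median was -0.13, with 11 higher (2.24%) and 98 lower (20%) at an unadjusted p under 0.05 and 1 called lower. Of 374 ileum-high IDs, 55.6% were higher (median 0.03), and 47 were higher (12.6%) and 20 lower (5.35%) at an unadjusted p under 0.05, with 0 called. Of 1005 jejunum-high IDs, 40.8% were higher (median -0.03), and 34 were higher (3.38%) and 131 lower (13%) at that p, with 6 called lower. These medians and counts describe the groups and carry no test. With lane as a covariate and the libraries of number 13 apart, the medians were 0.07 (alimentary-risen), -0.04 (alimentary-fallen), 0.01 (ileum-high) and 0.01 (jejunum-high). With those libraries apart and no lane term they were 0.13, -0.11, 0.01 and -0.01.

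By section pair, the alimentary-risen IDs had medians of 0.13 (13 lane 7), 0.17 (16), 0.26 (18) and 0.19 (19), and -0.08 in 13 lane 4. The alimentary-fallen IDs had medians of -0.05, -0.08, -0.23 and -0.17 in the same pairs, and 0.01 in 13 lane 4. The ileum-high IDs did not hold 1 direction, with -0.01, 0.16, -0.05 and 0.19, and -0.16 in 13 lane 4. Jejunum-high IDs were at -0.06, -0.08, -0.01 and -0.09 in the 4 pairs and at 0.17 in 13 lane 4, where 77.1% of them were higher in the glucotonic library. The jejunum-high IDs thus took opposite directions in both pairs of number 13, and the ileum-high IDs were below 0 in both. No source used here gives the position of each section along the gut, and position and glucotonic state cannot be told apart in these libraries.

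**Figure D5:**
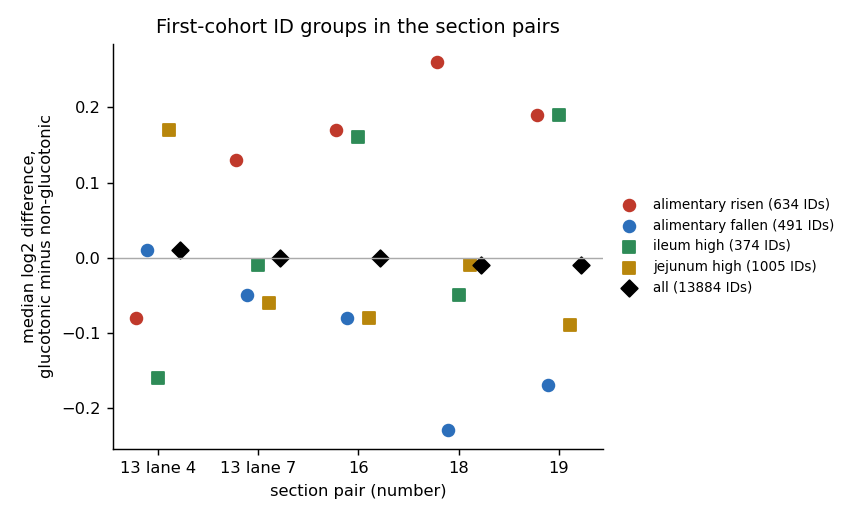
Median log2 difference, glucotonic minus non-glucotonic, of 4 groups of IDs defined in the first cohort and of all 13884 tested IDs (black), in 5 section pairs. The alimentary-risen group (red) lies at 0.13 to 0.26 and the alimentary-fallen group (blue) at -0.23 to -0.05 in 4 pairs, while in 13 lane 4 they lie at -0.08 and 0.01.

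Sham distal intestine of the same strain gave a level outside the pairs. For all 19 called IDs the mean log2 CPM of Sham_OLE was nearer to the non-glucotonic than to the glucotonic mean, as it was for 67.5% of all tested IDs (9372). Sham_OLE lay below both kinds of section in 6 of the 7 risen IDs and between them in 1. Of the 12 fallen IDs, Sham_OLE was above both kinds in 5 and between them in 7. The Sham_OLE libraries all came from lane 7 and differed widely among themselves in the most strongly fallen IDs, so these positions are descriptions.

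Across 17 alternative settings, all 19 kept the sign of their log2 change in every setting in which they were tested. These settings refit the same libraries, and in the summed samples all 19 had 1 direction in each of the 4 numbers. The kept sign is therefore no sign of stability. In the pair of 13 lane 4 taken by itself, 10 of 19 had the called direction. Of the 19, 7 passed the threshold in at least 50% of the settings. The adjusted p of ENSRNOG00000010708 ran from 2.11e-08 to 1 (edgeR and DESeq2 settings), with log2 changes of -5.73 to -4.6, and it passed in 10 of 16 settings. ENSRNOG00000047026 passed in 10 of 17 (adjusted p 1.4e-13 to 1, log2 change -5.44 to -3.99). ENSRNOG00000003977 passed in 8 of 17 (adjusted p 9.19e-16 to 1, log2 change 1.19 to 1.89), as did ENSRNOG00000058388 (adjusted p 7.51e-11 to 1, log2 change 0.82 to 1.17).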

How the data were processed

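RNA from rat intestine was made into stranded, rRNA-depleted total RNA libraries (TruSeq), per the labels' protocols. The submitters' processing notes name FastQC, STAR and build rn6. How reads were counted (tool, annotation, strand, multiple hits) is not given in the sources used here, so IDs with near-identical copies are uncertain. The authors deposited whole-number counts per Ensembl gene ID (32883 IDs, 25 libraries), not normalized. 0 lines of the reference gene table hold such an ID, so no symbol, marker list or sequence could be assigned.

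Groups and numbers came from the titles. Counts of both number 13 libraries per group were summed. These were not one library deposited again, since a chi-square test of their counts (IDs reaching 20) gave 25.6 (glucotonic) and 28.7 (non-glucotonic) per degree of freedom. The lowest value within a group was 14.7, between glucotonic 16 and 18. Libraries of number 13 gave lower values against number 18 than against each other (15.2 and 23.2 glucotonic, 21.8 and 17 non-glucotonic). Against number 16 they gave 21.6 to 33.4, and against number 19 they gave 66.6 to 113. ENSRNOG00000043866 and ENSRNOG00000030478 were left out of all totals. edgeR 4.0.16 (R 4.3.3) was run with TMM scaling, filterByExpr (10 counts in enough samples, 15 in total), robust quasi-likelihood fitting with the number as a block, and a Benjamini-Hochberg threshold of 0.05. Dividing a log2 change by the root of F gave its SE, which comes from the fit and is not the spread of the 4 pair differences. Pair differences use log2 CPM with a prior count of 2. First-cohort groups were fitted in the same way without a block. Sham jejunum and sham ileum carry the same replicate labels, as do alimentary and common limb, and this pairing was not used. The ileum minus jejunum values and the ID groups drawn from them therefore come from an unpaired fit.

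Sections that share a number in their titles were taken as pairs. Deviations from the group mean correlated between sections of 1 number at 0.519 (13), 0.488 (16), 0.373 (18) and 0.828 (19). The highest correlation with another number was 0.421, 0.479, 0.479 and -0.312, so the data alone do not set the pairing of 13, 16 and 18. The labels do not say that samples are separate rats, and p-values then measure only the spread between these samples.

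Printed IDs were those past the threshold with 1 CPM or more on average, 1 direction in all 4 numbers and the largest log2 change, at most 2 per direction. The 2 IDs left out of the totals are named besides. The contrast, the rule and the first-cohort ID groups were chosen with earlier results of these data known. Alternatives were DESeq2 1.42.0, its size factors, other count filters, no block, each number left out, the libraries of number 13 apart or singly, same-lane pairs, lane as a covariate, both large IDs kept and Sham_OLE in the fit. Intervals and the floor of 3 counts cover counting error only. Depth was 8.75 to 12.8 M counts per library after both IDs were left out.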

Additional observations from a re-analysis of the deposited data

Results flagged for a closer look

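In 3 of 22 groups of 4 samples examined, 1 sample lay far from the other 3 for the range of the group. All 3 were samples of number 19, and the groups reuse the same samples. Chance marks about 1 in 20 independent groups. The non-glucotonic section of number 19 held 84.1 CPM of ENSRNOG00000010708, with 16.4 CPM as the next value. The glucotonic section of number 19 gave 13.3% of its counts to ENSRNOG00000030478, with 5.94% as the next value. On the first principal component of the 8 samples, the glucotonic section of number 19 lay at 68.7, with -24.4 as the next value.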

How the results depend on the processing

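The count of 19 called IDs stayed within 1.5 times in 4 of 17 alternatives and moved in 13, between 0 and 407. In the summed samples the calls depended on the block: with no replicate block edgeR called 0 (506 at an unadjusted p under 0.05), and 0 with Sham_OLE in that unblocked fit. Leaving out a number gave 6 (without 19) to 223 (without 13) calls, with 8 without 16. DESeq2 with the block called 276, and edgeR with no low-count filter 178. The libraries of number 13 gave 0 calls when kept apart under 1 block, 0 from lane 4 only, 407 from lane 7 only, and 1 as separate pairs (an alternative chosen after seeing the data). Same-lane pairs and lane as a covariate, both with the libraries of number 13 apart, gave 1 each. No alternative turned the sign of a called ID that it tested. With lane as a covariate, the median of the alimentary-fallen IDs was -0.04 in place of -0.13. It was -0.11 with the libraries of number 13 apart and no lane term. The cause of these moves was not tested. With 3 residual degrees of freedom and 8.75 to 12.8 M counts per library, small differences in IDs of few counts were not detectable at this depth.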
